A study of Mus musculus with 10 samples.

Results

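The genes described here are 64 regulators of tissue and positional identity, taken by symbol from the 18193 genes that the arrays could represent. They comprise every measured Hox gene (9 of the A cluster, 9 of the B cluster, 7 of the C cluster and 8 of the D cluster), 6 Meis and Pbx genes, 12 T-box genes, 6 GATA genes and the 7 mesenchymal factors Foxf1, Foxf2, Tcf21, Prrx1, Prrx2, Twist1 and Twist2. A further 8 genes whose symbols fit the same pattern had no probe set of their own in the annotation used and were not analysed here as single genes. Their levels were read on 10 Affymetrix Mouse430_2 arrays, 5 of normal lung fibroblasts and 5 of carcinoma-associated fibroblasts (CAF), all cultured from mouse lung and all hybridised as total RNA from cells kept in serum-containing medium. Strain, genotype, age, sex and the tumour model are not given in the sources used here. Arrays of a group are titled biological replicates, without a statement that each came from its own animal, so p-values measure the spread between these arrays. All values are log2 levels after robust multi-array averaging (RMA), and all differences are CAF minus normal on that log2 scale.

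Hox genes encode homeodomain transcription factors that lie in clusters and are used in overlapping domains along the body axis, and fibroblasts keep much of that positional pattern in culture. Meis and Pbx proteins are homeodomain partners that bind DNA together with Hox proteins. In lung mesenchyme, T-box factors Tbx2 to Tbx5 and the forkhead factors Foxf1 and Foxf2 act in the growth of the organ, and Tcf21 is a basic helix-loop-helix factor of the mesenchyme around its airways. Prrx1, Prrx2, Twist1 and Twist2 mark mesenchymal cells of many organs, and GATA factors act in the heart, endoderm and blood lineages.

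Promoter sequences are shown for 4 genes that the results turn on and that the RefSeq promoter table of build GRCm38.p6 holds: Hoxc4 from the end of a block of Hox C genes that was high on a few CAF arrays, Foxf2 with the lowest p among the 64 genes, and Prrx1 and Twist2, which varied most widely among the bright mesenchymal factors. Each runs 5′ to 3′ on the gene's own strand from 250 bases before to 50 bases after the annotated start, 300 bases in all. Capitals mark matches, on either strand, to 4 motifs of 6 letters: TAATTA for homeodomains, TGACAG for Meis and Tgif proteins, AGGTGT for T-box proteins and AGATAA for GATA proteins. Hoxc4 lies at chr15:103034145-103034444 on the plus strand, Foxf2 at chr13:31625566-31625865 on the plus strand, Prrx1 at chr1:163313601-163313900 on the minus strand and Twist2 at chr1:91801211-91801510 on the plus strand.
Hoxc4: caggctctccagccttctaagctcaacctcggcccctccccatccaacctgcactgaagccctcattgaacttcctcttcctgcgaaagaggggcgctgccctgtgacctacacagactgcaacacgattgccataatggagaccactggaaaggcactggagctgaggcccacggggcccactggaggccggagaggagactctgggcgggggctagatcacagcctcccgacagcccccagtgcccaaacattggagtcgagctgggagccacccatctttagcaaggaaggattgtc
Foxf2: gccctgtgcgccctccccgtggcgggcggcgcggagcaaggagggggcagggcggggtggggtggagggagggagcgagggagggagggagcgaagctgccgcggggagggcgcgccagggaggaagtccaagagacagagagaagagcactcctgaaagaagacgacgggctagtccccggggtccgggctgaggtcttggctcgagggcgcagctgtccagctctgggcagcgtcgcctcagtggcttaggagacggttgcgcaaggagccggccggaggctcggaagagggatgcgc
Prrx1: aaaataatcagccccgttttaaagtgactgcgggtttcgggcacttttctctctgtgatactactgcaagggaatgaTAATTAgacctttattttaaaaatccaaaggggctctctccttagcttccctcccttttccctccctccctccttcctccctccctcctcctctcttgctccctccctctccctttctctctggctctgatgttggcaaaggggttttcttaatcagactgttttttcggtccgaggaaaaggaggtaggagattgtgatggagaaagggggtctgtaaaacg
Twist2: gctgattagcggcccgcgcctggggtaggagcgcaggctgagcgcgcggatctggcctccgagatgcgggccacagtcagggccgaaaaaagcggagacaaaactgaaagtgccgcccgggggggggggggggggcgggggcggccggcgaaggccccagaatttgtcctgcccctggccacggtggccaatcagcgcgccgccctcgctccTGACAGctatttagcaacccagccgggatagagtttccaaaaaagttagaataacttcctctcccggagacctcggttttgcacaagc
The Prrx1 promoter held 1 TAATTA and the Twist2 promoter 1 TGACAG, while none of the 4 motifs was in these windows of Hoxc4 or Foxf2. Base composition differed among them, from 47.7% G and C with 6 CpG dinucleotides at Prrx1 and 60.3% with 9 at Hoxc4 to 64.7% with 25 at Twist2 and 71.3% with 27 at Foxf2. The table held 48 promoters of 42 of the 64 genes. TAATTA was in 5 of the 48 (10.4%) and in 5.29% of all 32851 promoters of the same length. Those 5 included more than 1 promoter of Hoxd11, beside promoters of Prrx1, Tbx19 and Tbx6. TGACAG was in 6 of the 48 (12.5%) against 19.2% of all promoters, AGGTGT in 5 (10.4%) against 13.7%, and AGATAA in 3 (6.25%) against 11.2%. These matches describe letters only and show no binding.

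The arrays were close to each other in overall level, with medians of 6.76 to 6.79 on the normal arrays and 6.73 to 6.74 on the CAF arrays. The pairwise correlations over all probe sets were 0.944 to 0.991 among normal arrays and 0.983 to 0.992 among CAF arrays. Of 12 fibroblast markers, 11 exceeded the detection reference on all 10 arrays, and their mean was 12.38 to 14.08 on the normal and 12.22 to 13.71 on CAF arrays. That reference was the 95th percentile of 70 olfactory, vomeronasal and trace amine receptor genes on the same array, which ran from 6.55 to 6.70 on the normal and 6.38 to 6.58 on CAF arrays. In the labels, normal arrays 1 to 3 carry codes with the prefix vs, and normal arrays 4 and 5 and all CAF arrays carry ls, whose meaning is not given. As these are bulk cultures, fewer cells of a type and less RNA per cell cannot be told apart.

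Measured against that reference, 38 of the 64 genes were above it on at least 5 arrays, 34 of them on all 10, and 16 were above it on none. Among all genes the share above it on at least 5 arrays was 68.4%. All 7 mesenchymal factors and 5 of 6 Meis and Pbx genes were above it, as were 6 of 9 Hox A, 6 of 9 Hox B, 3 of 7 Hox C, 7 of 12 T-box and 3 of 6 GATA genes. In the Hox D cluster 1 of 8 genes was, namely Hoxd9. The detected Hox genes were thus mainly Hoxa2 to Hoxa9 and Hoxb2 to Hoxb6, with Hoxb13 near the reference. Hoxc4, Hoxc6 and Hoxc9 were also above it on all 10 arrays. A probe set shared by Hoxb7 and Hoxb8, outside these counts, was above the reference as well, at 7.13 to 8.83. Hoxa10, Hoxa11 and Hoxa13 of the same A cluster were above the reference on none of the arrays, as were 6 of the 8 Hox D genes.

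Between CAF and normal fibroblasts, 0 of the 64 genes passed an adjusted p of 0.05 in limma, where 137 of 18193 genes (0.753%) did. The lowest adjusted p was 0.0844, for Foxf2. At an unadjusted limma p under 0.05 there were 11 of the 64 genes (17.2%), 3 higher and 8 lower in CAF, and 22.3% of all genes. Of the 26 settings tried, array weights in limma was the 1 that called any of them, namely Foxf2, Hoxc9 and Tbx20, and 8.78% of all genes were called in that fit. The count called over all genes depended on the setting and ran from 0 to 1597. It was 0 with the label prefix or the replicate number as a term and in the exact Wilcoxon test. Leaving out normal array 3 or CAF array 1, 3 or 5 also gave 0. With the ls normal arrays alone, and without CAF array 4, it was 1. The CAF and normal values did not overlap for 4 of the 64 genes (6.25%), which were Foxf2 above and Hoxc9, Tbx19 and Tbx20 below the normal arrays. Over all genes that share was 7.16%, with 2.97% above and 4.19% below. Both shares for the 64 genes thus lay near or below the shares over all genes.

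The median difference over the 64 genes was -0.02, against -0.04 over all genes, with 30 positive and 34 negative. By family it ran from -0.22 for the GATA genes to 0.51 for the mesenchymal factors, with -0.08 for Hox A, 0.04 for Hox B, 0.40 for Hox C, -0.06 for Hox D, -0.06 for Meis and Pbx and 0.01 for T-box genes. A difference of at least 2-fold was measured for 4 of the 64 genes and 2.20% of all genes. These 4 were Hoxc8 (1.64), Twist2 (1.45), Tbx3 (1.39) and Hoxc5 (1.05), each with an SE of 0.54 or more. Twist2 and Tbx3 were above the reference on 10 arrays, but Hoxc8 on 2 and Hoxc5 on 4. The SD was larger among the CAF than among the normal arrays for 39 of the 64 genes, while for 71.1% of all genes it was larger among the normal arrays. Among the 38 genes above the reference the split was 19 against 19, and among the 26 others the CAF SD was larger for 20.

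**Figure D1:**
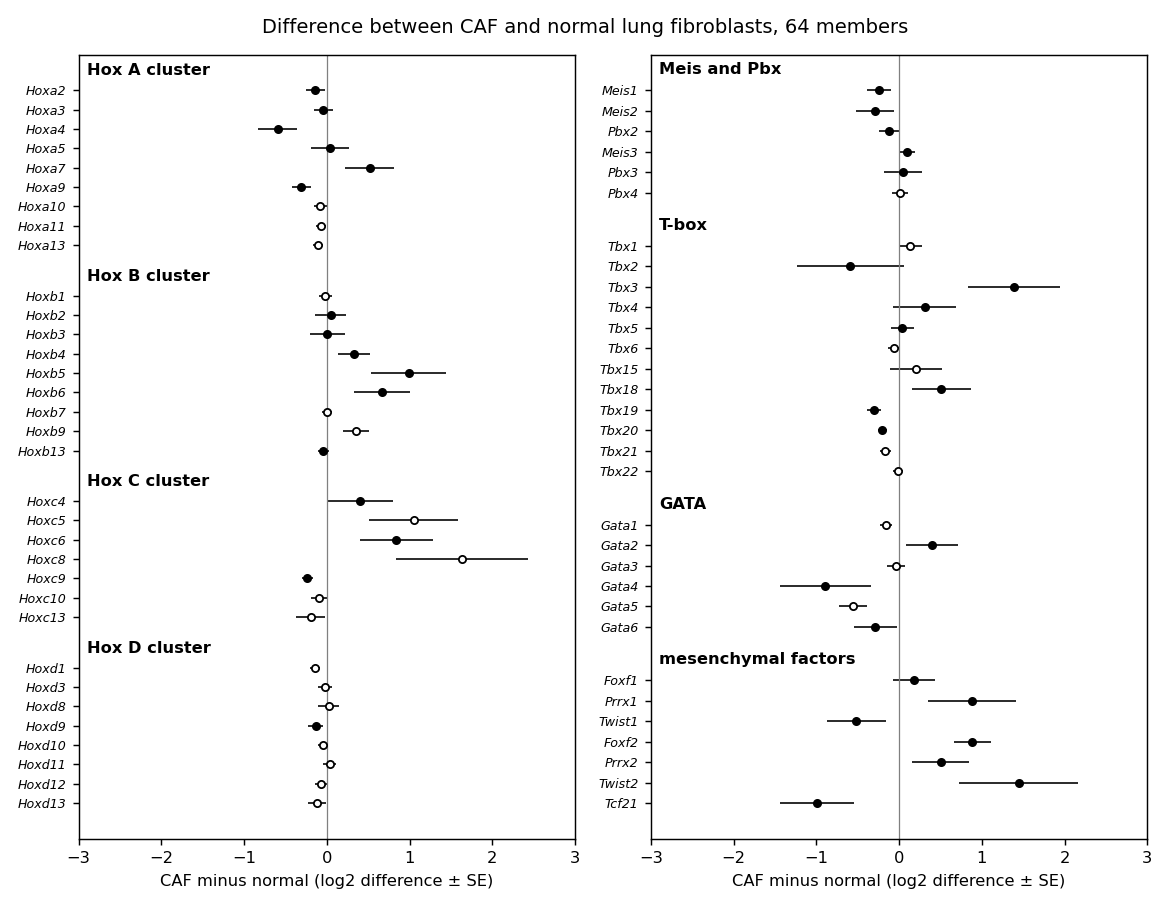
Difference between the 5 CAF and 5 normal arrays for each of the 64 genes by family, as the log2 difference with its standard error, where filled points are genes above the detection reference on at least 5 arrays and open points are the others. Hoxc8 lies farthest to the right at 1.64 with an SE of 0.80, and Tcf21 farthest to the left at -0.99.

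The mesenchymal factors were bright in both groups, and the forkhead gene Foxf2 stood nearest to the threshold. Foxf2 read 7.50, 8.03, 7.59, 7.97 and 7.33 on normal arrays 1 to 5 and 8.30, 8.28, 9.31, 8.23 and 8.71 on CAF arrays 1 to 5. Every CAF array was above every normal array, and CAF array 3 was the highest. The group means were 7.68 ± 0.30 (SD, n = 5) and 8.57 ± 0.46 (SD, n = 5), a difference of 0.88 ± 0.23 (SE), or 1.85-fold, with a limma adjusted p of 0.0844. The difference was 0.92 with the ls normal arrays alone and 0.86 with the vs ones alone. A dimmer second probe set of Foxf2, below the reference on all arrays, gave -0.00069. Its paralog Foxf1, a hedgehog target of lung mesenchyme, was brighter and overlapped between the groups, at 10.02 to 11.08 on the normal and 10.11 to 11.28 on CAF arrays, with a difference of 0.18 ± 0.25 (SE). CAF array 3 was the highest for Foxf1 as well.

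Tcf21 read 8.21, 9.16, 9.35, 8.95 and 8.48 on normal arrays and 7.47, 7.55, 9.60, 7.34 and 7.25 on CAF arrays. CAF arrays 1, 2, 4 and 5 were below all normal arrays, while CAF array 3 was above all of them. The difference was -0.99 ± 0.45 (SE) with a limma adjusted p of 0.228, and -1.43 without CAF array 3.

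Twist2, a basic helix-loop-helix repressor of the dermis and other mesenchyme, read 8.10, 11.11, 8.99, 10.60 and 10.24 on normal arrays and 12.45, 9.96, 11.17, 12.67 and 10.03 on CAF arrays. CAF arrays 1, 4 and 3 were above all normal arrays, CAF array 3 by little, and CAF arrays 2 and 5 lay within the normal range. The difference was 1.45 ± 0.72 (SE), 2.72-fold, with a limma adjusted p of 0.269; it was 1.85 with the vs normal arrays alone and 0.84 with the ls ones. Its paralog Twist1 was 8.94 ± 0.28 (SD, n = 5) on the normal and 8.42 ± 0.82 (SD, n = 5) on CAF arrays, a difference of -0.52 ± 0.35 (SE). The lowest Twist1 values were 7.77 on CAF array 2 and 7.43 on CAF array 3.

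Prrx1, a homeodomain factor of limb and other mesenchyme, read 11.00, 13.40, 10.40, 12.47 and 11.99 on normal arrays and 13.04, 12.11, 12.52, 13.49 and 12.49 on CAF arrays. Normal arrays 1 and 3 were the lowest of the 10, and normal array 2 was among the highest. The difference was 0.88 ± 0.53 (SE) with a limma adjusted p of 0.351, and the 5 probe sets of Prrx1 above the reference gave 0.73 to 0.88. It was 0.51 without normal array 3, 0.50 with the ls normal arrays alone and 1.13 with the vs ones. Prrx2 also had its lowest values on normal array 3 (9.09) and normal array 1 (9.79), with a difference of 0.51 ± 0.34 (SE).

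**Figure D2:**
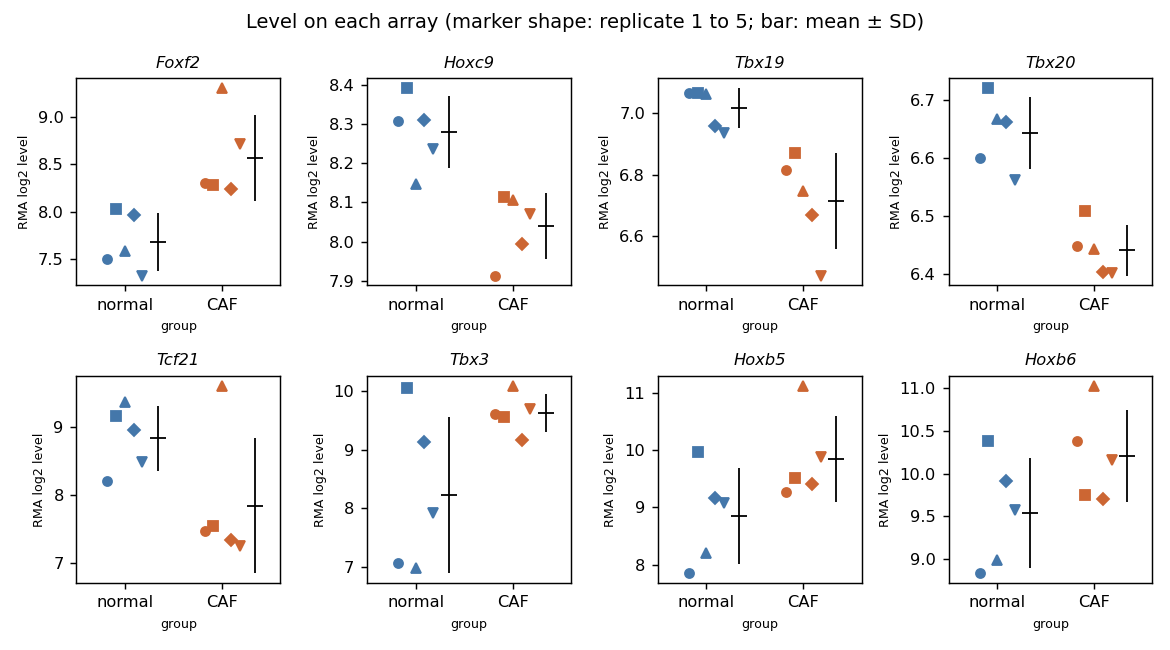
RMA log2 level on each array for the 4 genes whose groups did not overlap (Foxf2, Hoxc9, Tbx19, Tbx20) and for Tcf21, Tbx3, Hoxb5 and Hoxb6, with marker shapes for replicates 1 to 5 and bars for the mean and SD of 5 arrays. CAF replicate 3, the upward triangle, is the highest CAF value for Foxf2, Tcf21, Tbx3, Hoxb5 and Hoxb6.

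In the Hox C cluster a run of neighbouring genes was high on a few CAF arrays. Hoxc8 read 4.68, 4.45, 4.72, 4.79 and 4.63 on normal arrays and 9.46, 4.73, 4.78, 6.83 and 5.64 on CAF arrays. It was above the reference on CAF arrays 1 and 4 alone. The difference of 1.64 ± 0.80 (SE), 3.11-fold, had a limma adjusted p of 0.261, and it was 0.84 without CAF array 1. Next to it, Hoxc6 read 7.54, 7.30, 7.23, 7.45 and 7.21 on normal arrays and 9.85, 7.41, 7.32, 8.67 and 7.66 on CAF arrays, again with CAF arrays 1 and 4 on top. Hoxc5 read 6.28, 6.22, 6.84, 6.28 and 6.56 on normal arrays and 9.17, 6.33, 6.09, 8.21 and 7.61 on CAF arrays. The differences were 0.84 ± 0.44 (SE) for Hoxc6 and 1.05 ± 0.54 (SE) for Hoxc5, with limma adjusted p of 0.291 and 0.278, and 0.42 and 0.62 without CAF array 1. Hoxc4, whose promoter is printed above, read 7.48, 6.86, 8.45, 7.80 and 7.81 on normal arrays and 8.87, 7.60, 7.01, 8.79 and 8.14 on CAF arrays. It overlapped more widely, since normal array 3 reached 8.45, and differed by 0.40 ± 0.40 (SE).

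Set against the mean of the 5 normal arrays, CAF array 1 stood higher by 4.81 for Hoxc8, 2.51 for Hoxc6, 2.74 for Hoxc5 and 1.19 for Hoxc4. CAF array 4 stood higher by 2.18, 1.33, 1.77 and 1.11 for the same genes, and CAF array 5 by 0.99, 0.32, 1.18 and 0.46. CAF arrays 2 and 3 were within 0.13 of the normal mean for Hoxc8 and within 0.07 for Hoxc6. The run ended at Hoxc9 on one side, where all 5 CAF arrays were below the normal mean, and at Smug1, the next measured gene beyond Hoxc4, where CAF arrays 1 and 4 stood at 0.34 and -0.17. Other probe sets gave smaller differences, 0.63 and 0.09 for Hoxc6 and 0.58 and 0.11 for Hoxc5. The female-specific transcript Xist was high on CAF arrays 1 and 4 (12.2 and 11.7) but also on normal arrays 3 and 4 (12.6 and 12.4), where Hoxc8 was 4.72 and 4.79, and 6.17 to 7.16 elsewhere. The part of sex in the Hox C values was not tested.

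Hoxc9 itself read 8.31, 8.39, 8.15, 8.31 and 8.24 on normal arrays and 7.91, 8.11, 8.11, 7.99 and 8.07 on CAF arrays. The groups did not overlap, though the closest arrays were 8.15 and 8.11. The difference was -0.24 ± 0.07 (SE), 1.18-fold lower, with a limma adjusted p of 0.0933. Hoxc10 and Hoxc13 differed by -0.10 and -0.20, with overlapping groups.

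**Figure D3:**
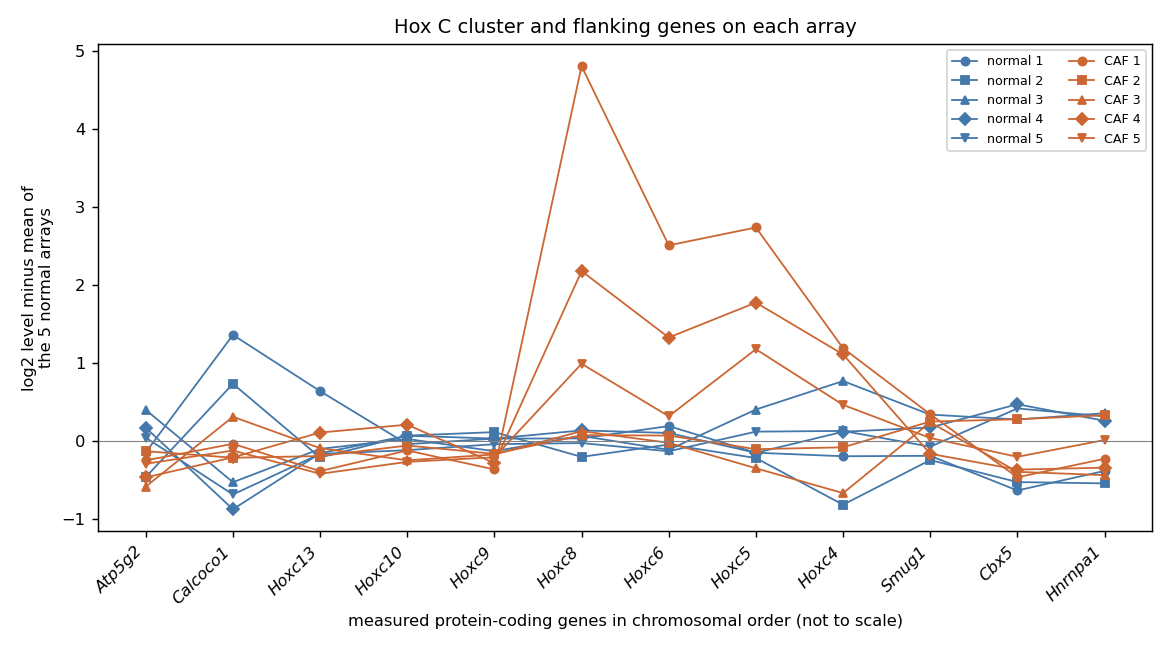
Level of the measured Hox C genes and flanking genes in chromosomal order, not to scale, as the log2 level on each array minus the mean of the 5 normal arrays, with blue lines for normal and orange lines for CAF arrays. CAF array 1 reaches 4.81 at Hoxc8 and 1.19 at Hoxc4, and no array departs this far at Hoxc9 or Smug1.

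In the B cluster the genes read singly had their largest differences at Hoxb5 and Hoxb6, neighbouring Hox genes that are used in embryonic lung mesenchyme. Hoxb5 read 7.85, 9.96, 8.21, 9.17 and 9.08 on normal arrays and 9.28, 9.52, 11.12, 9.41 and 9.88 on CAF arrays. Hoxb6 read 8.84, 10.38, 8.99, 9.91 and 9.57 on normal arrays and 10.39, 9.75, 11.03, 9.71 and 10.16 on CAF arrays. For both genes normal arrays 1 and 3 were the lowest, CAF array 3 was the highest, and normal array 2 lay within the CAF range. The differences were 0.99 ± 0.46 (SE) for Hoxb5 and 0.67 ± 0.34 (SE) for Hoxb6, with limma adjusted p of 0.237 and 0.279. Hoxb4 differed by 0.32 ± 0.20 (SE), with 8.79 to 9.80 on the normal and 9.24 to 9.91 on CAF arrays. A probe set shared by Hoxb7 and Hoxb8 gave 7.29, 7.53, 7.13, 7.73 and 7.63 on normal arrays and 8.24, 7.71, 8.83, 7.92 and 8.35 on CAF arrays. There CAF array 2 lay just inside the normal range, and the difference was 0.75 ± 0.20 (SE) with a limma adjusted p over all probe sets of 0.0815. Hoxb9 differed by 0.35 ± 0.15 (SE) but was above the reference on none of the arrays, and Hoxb13 differed by -0.04. Hoxb1, Hoxb2, Hoxb3 and the probe set of Hoxb7 alone differed by -0.02 to 0.04.

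Among Hox A genes, Hoxa5, which is required for normal lung formation, was bright and overlapped between the groups. It read 11.37, 11.68, 11.92, 11.58 and 12.06 on normal arrays and 11.38, 11.79, 12.55, 11.38 and 11.69 on CAF arrays, a difference of 0.04 ± 0.23 (SE) whose sign depends on the setting. Hoxa4 read 8.55, 8.46, 9.41, 8.61 and 8.89 on normal arrays and 7.93, 8.57, 8.68, 7.69 and 8.06 on CAF arrays. CAF arrays 1, 4 and 5 lay below all normal arrays, and the difference was -0.60 ± 0.24 (SE) with a limma adjusted p of 0.180. Hoxa9 read 7.75, 8.15, 7.47, 7.74 and 7.79 on normal arrays and 7.50, 7.54, 7.47, 7.49 and 7.35 on CAF arrays. Normal array 3 lay within the CAF range; the difference was -0.31 ± 0.11 (SE), with a limma adjusted p of 0.154, while a dimmer probe set of Hoxa9 gave 0.42 ± 0.21 (SE). Hoxa7 read 8.55, 8.66, 7.98, 8.10 and 8.58 on normal arrays and 9.76, 8.52, 9.35, 8.17 and 8.65 on CAF arrays, with CAF arrays 1 and 3 on top and a difference of 0.51 ± 0.29 (SE). The other 5 Hox A genes differed by -0.14 to -0.04.

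Hox D genes were dim throughout. Hoxd9, the 1 gene of the cluster above the reference on at least 5 arrays, was 6.96 ± 0.12 (SD, n = 5) on the normal and 6.82 ± 0.16 (SD, n = 5) on CAF arrays, a difference of -0.14 ± 0.09 (SE). Hoxd1 differed by -0.14 ± 0.06 (SE), Hoxd13 by -0.12 and Hoxd11 by 0.03, and the other 4 Hox D genes by -0.07 to 0.02. The limma adjusted p in this cluster was 0.192 or more.

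The Hox partners Meis1, Meis2, Pbx2 and Pbx3 were near or above a level of 9 on most arrays, and their groups overlapped. Meis1 was 9.91 ± 0.18 (SD, n = 5) on the normal and 9.67 ± 0.29 (SD, n = 5) on CAF arrays, and Meis2 was 9.35 ± 0.33 (SD, n = 5) and 9.06 ± 0.45 (SD, n = 5). Their differences were -0.24 ± 0.15 (SE) and -0.29 ± 0.23 (SE). Meis3 differed by 0.10 ± 0.09 (SE), but by -0.023 after a further quantile normalisation. Pbx3 differed by 0.05 ± 0.22 (SE), but by -0.29 with the ls normal arrays alone and 0.27 with the vs ones. The limma adjusted p of Meis and Pbx genes was 0.357 or more.

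Of 8 measured Hox cofactors and upstream regulators outside the 64 genes, 1 rose and 0 fell, where 0.561% of all genes were called higher and 0.192% lower. The gene that rose was Tgif1, a homeodomain corepressor that binds the same motif as Meis proteins and restrains transforming growth factor beta signalling. Tgif1 read 10.34, 10.50, 10.01, 10.11 and 10.52 on normal arrays and 10.87, 10.97, 11.46, 11.01 and 11.09 on CAF arrays. All CAF arrays were above all normal arrays, and the difference was 0.78 ± 0.14 (SE) with a limma adjusted p of 0.0483. The difference held at 0.69 to 0.84 over 26 other settings, but the call was kept in 8 of them, with adjusted p from 0.0242 to 0.306. Leaving out 1 array lost the call for every array except normal array 2. Pknox2, a further homeodomain gene of the list, differed by -0.46 ± 0.18 (SE).

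T-box genes had their largest difference at Tbx3, a repressor active in lung and limb mesenchyme. Tbx3 read 7.07, 10.04, 6.98, 9.13 and 7.92 on normal arrays and 9.61, 9.55, 10.09, 9.17 and 9.70 on CAF arrays. The CAF arrays lay close together and the normal arrays spread widely, with normal arrays 1, 3, 4 and 5 below all CAF arrays, array 4 by little, and normal array 2 near the CAF maximum. The means were 8.23 ± 1.33 (SD, n = 5) and 9.62 ± 0.33 (SD, n = 5), a difference of 1.39 ± 0.56 (SE), 2.63-fold, with a limma adjusted p of 0.182. A second Tbx3 probe set gave 1.76 ± 0.70 (SE), and 3 dimmer ones, above the reference on 2 arrays or fewer, gave -0.16, 0.015 and -0.12. Its paralog Tbx2 read 6.49, 6.10, 8.54, 8.34 and 6.69 on normal arrays and 6.01, 8.20, 7.42, 5.52 and 6.07 on CAF arrays, and differed by -0.59 ± 0.64 (SE). High Tbx2 values occurred in both groups, on normal arrays 3 and 4 and CAF array 2.

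Tbx4 and Tbx5, which act together in lung mesenchyme, overlapped between the groups. Tbx4 read 7.81, 8.92, 8.01, 8.18 and 7.31 on normal arrays and 7.80, 8.57, 9.45, 7.61 and 8.35 on CAF arrays, with CAF array 3 the highest and a difference of 0.31 ± 0.38 (SE). Tbx5 differed by 0.04 ± 0.14 (SE). Tbx18, a factor of mural and mesothelium-derived cells, ran from 8.69 to 10.34 on the normal and 9.38 to 10.75 on CAF arrays and differed by 0.51 ± 0.36 (SE). Tbx15 was above 7 on CAF array 4 alone, at 7.31.

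The T-box genes whose groups did not overlap were both near the detection reference. Tbx19, a pituitary lineage factor, read 7.06, 7.07, 7.06, 6.96 and 6.94 on normal arrays and 6.82, 6.87, 6.75, 6.67 and 6.47 on CAF arrays. Tbx20, a heart factor, read 6.60, 6.72, 6.67, 6.66 and 6.56 on normal arrays and 6.45, 6.51, 6.44, 6.40 and 6.40 on CAF arrays. All CAF values were below all normal values, by little in each case. The differences were -0.30 ± 0.08 (SE) for Tbx19 and -0.20 ± 0.05 (SE) for Tbx20, with limma adjusted p of 0.0884 and 0.0874. Tbx19 was above the reference on 10 arrays and Tbx20 on 5, of which 2 were normal and 3 CAF arrays. The reference itself was lower on most CAF arrays. Dimmer probe sets of Tbx20, above the reference on 0 arrays, gave -0.062 and 0.050. Dim genes of the arrays mostly had small negative differences. The 70 chemosensory receptor genes had a median difference of -0.08, 61 of them negative. Of these receptor genes 8 lay wholly below and 0 wholly above the normal arrays, and limma called 2 lower and 0 higher. The 5722 genes below the reference outside the set described here also had a median of -0.08. Of those 5722 genes 5.77% lay wholly below and 0.437% wholly above the normal arrays. Tbx19 and Tbx20 were not among them, being above the reference on at least 5 arrays. The part of such a shift of dim genes in the Tbx19 and Tbx20 values was not tested.

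GATA genes had negative differences for 5 of 6 members, though none passed. Over all genes 42.7% of the differences were positive, so negative ones were the more common. Gata4, a heart and mesoderm factor, read 9.45, 6.47, 8.62, 7.74 and 8.37 on normal arrays and 6.69, 8.22, 7.64, 6.30 and 7.35 on CAF arrays. The groups overlapped, with normal array 2 nearly as low as the lowest CAF array. Gata5 read 6.51, 6.18, 6.80, 6.15 and 6.28 on normal arrays and 5.60, 6.29, 5.92, 5.51 and 5.84 on CAF arrays, and CAF array 2 alone reached the normal range. Gata6, a regulator of lung endoderm and mesoderm, read 11.37, 10.28, 11.40, 10.83 and 10.56 on normal arrays and 10.59, 10.94, 10.73, 9.94 and 10.78 on CAF arrays. Normal arrays 1 and 3 were the highest for Gata6 and CAF array 4 the lowest. The differences were -0.89 ± 0.55 (SE) for Gata4, -0.56 ± 0.17 (SE) for Gata5 and -0.29 ± 0.26 (SE) for Gata6, with limma adjusted p of 0.358, 0.116 and 0.532. Gata5 was above the reference on 1 array, and its second probe set gave -0.77 ± 0.35 (SE). Gata2, best known from blood and endothelium, was the 1 GATA gene with a positive difference, at 8.66 to 10.25 on the normal and 9.33 to 10.61 on CAF arrays, or 0.39 ± 0.31 (SE). Gata1 and Gata3 differed by -0.16 and -0.04 and were dim, above the reference on 4 and 0 arrays.

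Markers of mesothelium, the cell layer that lines the lung surface, varied over the arrays in an order like that of Gata4. The mean of 12 such markers was 10.01, 6.07, 9.03, 8.00 and 9.10 on normal arrays and 6.95, 8.21, 7.35, 6.56 and 7.93 on CAF arrays. The lowest means were those of normal array 2 and CAF array 4, which also had the lowest Gata4 and Gata6 and the highest Prrx1. Normal arrays 1 and 3 were high in mesothelial markers and in Gata4, Gata5 and Gata6 and low in Prrx1, Twist2, Tbx3 and Tbx18. Normal array 5, whose mesothelial mean was above that of normal array 3, followed this in part. Its Gata4 was 8.37, among the higher values, and its Prrx1 (11.99) and Tbx3 (7.92) were among the lower ones. Its Gata5 was 6.28, its Gata6 10.56, its Twist2 10.24 and its Tbx18 9.58, which did not follow it. Of the 12 markers, 10 were above the reference on at least 5 arrays and 0 on all 10. Their differences were negative for 11 and positive for 1, with a median of -0.60, and 0 were called. Macrophage markers, 10 of 11 above the reference, had means of 11.86, 8.72, 11.29, 10.26 and 9.36 on normal arrays and 11.91, 10.49, 9.65, 10.49 and 11.40 on CAF arrays, also with 0 called. Lung epithelium markers had means of 6.60 to 7.57 on the normal and 6.38 to 7.31 on CAF arrays. Lymphocyte markers were at 6.27 to 6.39 on the normal and 6.25 to 6.39 on CAF arrays. Endothelium markers were at 6.43 to 6.49 on the normal and 6.27 to 6.37 on CAF arrays, with 0 called. The part of mesothelial or macrophage RNA in the differences of the 64 genes was not tested.

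**Figure D4:**
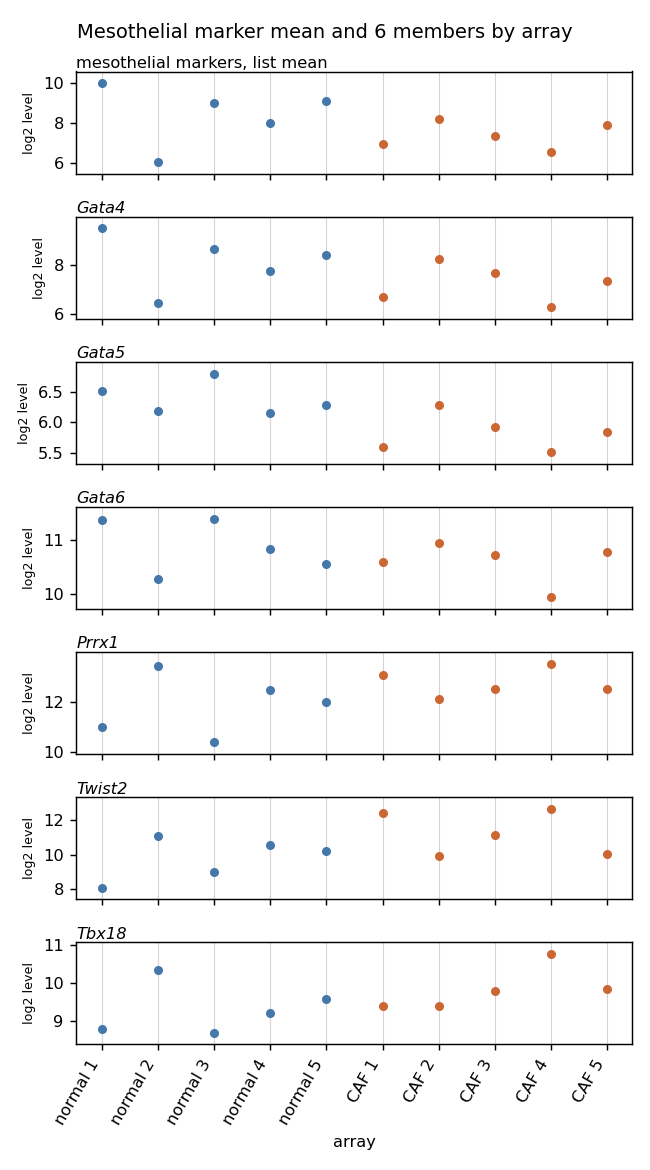
Mean log2 level of 12 mesothelial markers and log2 levels of Gata4, Gata5, Gata6, Prrx1, Twist2 and Tbx18 on each of the 5 normal (blue) and 5 CAF (orange) arrays, each panel on its own vertical scale that does not start at 0. Normal array 2 has the lowest marker mean, 6.07, with Gata4 at 6.47 and Prrx1 at 13.40, and normal array 1 the highest, 10.01, with Gata4 at 9.45 and Prrx1 at 11.00.

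Across the 38 genes above the reference, the highest and lowest values were unevenly spread over the arrays. CAF array 3 was the highest of the 10 arrays for 11 genes, namely Hoxa5, Hoxb4, Hoxb5, Hoxb6, Meis3, Tbx3, Tbx4, Gata2, Foxf1, Foxf2 and Tcf21. Normal array 2 was the highest for 8, among them Hoxa3, Tbx5 and Prrx2, and normal array 3 for 6, among them Hoxa4, Meis1, Tbx2 and Gata6. CAF array 4 was the highest for Hoxb3, Tbx18, Prrx1, Twist1 and Twist2 and the lowest for 6 genes, among them Hoxa4, Meis1, Tbx2, Gata4 and Gata6. Normal array 3 was the lowest for 8 genes, including Hoxa7, Hoxb4, Tbx3, Foxf1, Prrx1 and Prrx2. CAF array 2 was the highest for 0 genes and the lowest for 1, Hoxb3.

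**Figure D5:**
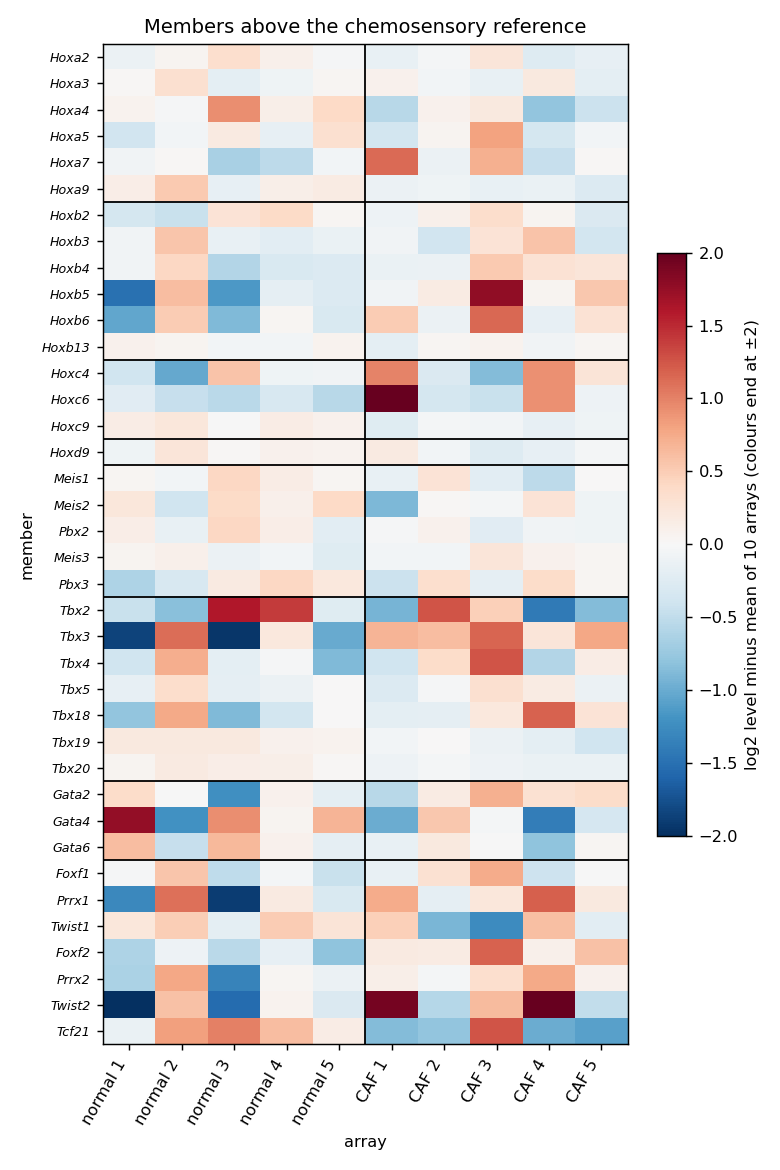
Log2 level of the 38 genes above the detection reference, as the difference from each gene's mean over the 10 arrays, with arrays in columns, genes in rows by family and colours that end at 2 log2 units. CAF array 3 is the highest array for 11 of the genes and normal array 3 the lowest for 8, and the line in the middle separates normal from CAF arrays.

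Genes that act with or upstream of these factors were also mostly not called: of 124 genes in 7 lists, 1 rose (Tgif1) and 0 fell. This count is near the share called over all genes, 0.753%. The median difference by list ran from -0.16 to -0.01. Among 20 Polycomb group genes, which silence Hox clusters, 0 were called and the median was -0.08, with Phf19 at -0.21 ± 0.07 (SE) and Jarid2 at 0.43 ± 0.20 (SE). Trithorax group proteins and related demethylases oppose that silencing. In a list of 13 of their genes and other chromatin genes 0 were called, with Kmt2c at 0.36 ± 0.12 (SE) and Dot1l, of neither class, at -0.35 ± 0.18 (SE). For 16 genes of retinoic acid signalling, which acts on Hox genes, 0 were called and the median was -0.16, with the retinoid-degrading enzyme Cyp26a1 at -0.37 ± 0.09 (SE) and the retinol dehydrogenase Rdh10 at 0.37 ± 0.27 (SE). The 3 enzymes of the list that make retinoic acid itself had negative differences, Aldh1a1 of -1.27 ± 0.63 (SE), Aldh1a2 of -1.05 ± 0.41 (SE) and Aldh1a3 of -0.41 ± 0.65 (SE), named here after their values were seen.

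Among 10 GATA and T-box partners and other T-box genes 0 were called. Mga, a MAX partner with a T-box of its own, read 8.11, 8.46, 8.22, 8.22 and 8.50 on normal arrays and 8.77, 8.60, 8.76, 8.84 and 8.82 on CAF arrays, apart in all arrays, with a difference of 0.46 ± 0.09 (SE) and a limma adjusted p of 0.0534. Lmo4, a LIM-only cofactor, lay apart in the other direction, at 11.29 to 11.84 on the normal and 10.73 to 11.22 on CAF arrays, or -0.62 ± 0.14 (SE). Among 47 other mesenchymal transcription factors 0 were called, with Zeb2 at 0.74 ± 0.20 (SE) and Meox1 at -0.37 ± 0.10 (SE). Meox1 was dim, above the reference on 0 arrays. Among 10 genes known as targets in lung mesoderm 0 were called, with the hedgehog receptor Ptch1 at 1.48 ± 0.36 (SE) and a limma adjusted p of 0.0724. Ptch1 read 7.94, 9.84, 8.82, 8.92 and 8.90 on normal arrays and 10.13, 9.74, 10.71, 11.14 and 10.10 on CAF arrays, so that normal array 2 alone reached the CAF range. Fgf10, a growth factor of lung mesenchyme, differed by 1.26 ± 0.52 (SE) and the hedgehog ligand Shh by -0.21 ± 0.10 (SE).

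The 64 genes were read by 112 probe sets, of which 0 were called when 45037 probe sets were tested singly in limma, where 605 were called. Of 18 genes with at least 2 probe sets above the reference, 15 had the same sign in all of those, and the exceptions were Hoxa5, Hoxb3 and Pbx3. Both Tbx19 probe sets kept the groups apart, with -0.30 and -0.18. Of 2 probe sets shared by Hoxd3 and Hoxd4, 1 differed by -0.27 ± 0.08 (SE) with a limma adjusted p over all probe sets of 0.109, and the other by 0.0029.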

How the data were processed

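Total RNA of cultured mouse lung fibroblasts was hybridised as labelled cRNA to 10 arrays, 5 per group, and groups and replicate numbers were read from the sample titles. The authors' deposited table holds log2 values, 1 column per array, made by RMA in Affymetrix Expression Console per the submitters' processing notes, which also list limma; versions are not given in the sources used here. RMA normalises arrays to each other and gives no detection call, so low values may be background.

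Of 45037 probe sets that are not controls, 34945 had 1 gene symbol in the platform annotation, with symbols updated through the gene table of GRCm38.p6. Each of 18193 genes was read by its probe set with the highest mean over the 10 arrays. limma 3.58.1 in R 4.3.3 (lmFit, eBayes) was fitted with group as the only term on the log2 values, with Benjamini-Hochberg adjustment over all genes, and every adjusted p is from that fit unless another is named; the fit was tested on simulated data. Families, related lists and marker lists were chosen with earlier results of these data known. Per-array values are given for genes that were called, whose groups did not overlap, or that in their family had the lowest p or, above the reference, the highest SD; a few others were named after their values were seen. The number of arrays limits the precision. Alternatives were the label prefix, scaling, probe set choice, filters, eBayes options, array weights, an exact Wilcoxon test, a replicate block and leaving out each array. Replicate numbers were treated as names, since same-numbered arrays did not deviate together.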

Additional observations from a re-analysis of the deposited data

Results flagged for a closer look

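Tcf21 on CAF array 3 stood apart from the other CAF arrays: it read 9.60, the nearest CAF array 7.55, and this gap was 0.873 of the whole CAF range, above Dixon's 95% critical value for 5 values. It was the 1 such value among 72 groups screened, 36 named genes in 2 conditions, and chance gives about 1 in 20 groups.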

How the results depend on the processing

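Over 26 alternatives and 36 named members there were 919 values, of which 890 kept their direction and their side of the threshold, 26 changed sign in 7 genes, and 3 newly passed it. With array weights the count of members called was 3 instead of 0, and Hoxc9 (-0.23), Tbx20 (-0.19) and Foxf2 (0.92) passed; in the other settings it was 0. The members with groups apart numbered 4, but 10 with the ls normal arrays alone (32.6% of all genes), 7 with the vs normal arrays alone (12.9%), 4 to 7 when 1 array was left out, the 7 (10.9%) being without CAF array 2 (12.0% of all genes), and 3, without Tbx20, with the probe set of highest SD and with the filter at the median; with the mean of probe sets Meis1 stood in place of Tbx20. The replicate block called 0 members and 0 of all genes, with 8 members (12.5%) and 16.6% of all genes at an unadjusted p under 0.05, and the correlations of same-numbered arrays were -0.53 to 0.34, with 1 of 5 pairs correlating best with its own number. Hoxa5 reversed to -0.063 with the label prefix as a term and with the ls arrays alone, -0.011 after quantile normalisation, -0.052 with the mean of probe sets, -0.14 with the probe set of highest SD, -0.10 with array weights and -0.16 to 0.13 leaving out 1 array. Pbx3 reversed to -0.29, -0.29, -0.070 and -0.015 in the first 4 of these settings, -0.078 without the _x_at and _s_at probe sets, -0.14 with array weights and -0.10 to 0.16 leaving out 1 array. Hoxa9 was 0.054 with the mean of probe sets and 0.42 with the probe set of highest SD, where Tbx20 was 0.050; Hoxb13 was 0.017 and Meis3 -0.023 after quantile normalisation; leaving out 1 array gave -0.065 to 0.00065 for Hoxb13 and -0.0045 to 0.079 for Hoxd11. The cause of these changes was not tested. With 5 arrays a group and no detection call, dim members such as Hox D genes are uncertain in size.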
